A study of Mus musculus with 2 samples.

Results

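The oxysterol-binding protein-like genes were examined in the mouse macrophage cell line RAW264.7 after transfection of a synthetic double-stranded RNA. The members were chosen by gene symbol, with their signals on both arrays and the difference between the arrays already known, and they comprised Osbpl1a, Osbpl2, Osbpl3, Osbpl5, Osbpl6, Osbpl7, Osbpl8, Osbpl9, Osbpl10 and Osbpl11. These 10 genes, of 22180 named genes measured, were also all 10 protein-coding genes with an Osbpl symbol in the RefSeq gene table used here. Each had 1 probe set (the group of probes that reports a gene) that carried its symbol alone. Probe sets with several symbols were left out except where stated. The related genes Osbp and Osbp2 are given beside them.

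The study hybridised RNA from 2 RAW264.7 cultures to Affymetrix arrays, 1 array for wildtype cells and 1 for cells of genotype HuR-deficient. Both cultures had been given high molecular weight poly(I:C), a stand-in for viral RNA, complexed with lipofectamine 2000 for 8 h, at a concentration that the labels state as 1 mg/ml. HuR, the product of Elavl1, is an RNA-binding protein that recognises AU-rich stretches of mRNA. The sample title calls the deficient cells HuR-KO, a knockout, and the labels do not state how the knockout was made or whether the cells came from 1 clone, and no unstimulated culture was analysed here. With 1 array per group there is no replicate error and no test between the conditions, so each value below describes these 2 arrays. Signals are log2 RMA values, and every difference is the array labelled HuR-deficient minus the wildtype array.

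Oxysterol-binding proteins and their relatives are lipid carriers, most of them cytosolic, that work where the endoplasmic reticulum touches another membrane. A shared C-terminal lipid-binding domain holds a sterol or a phosphatidylserine in exchange for a phosphoinositide, and breakdown of that phosphoinositide at the endoplasmic reticulum drives the traffic. Most members also carry a pleckstrin homology domain that recognises phosphoinositides on the target membrane. Many, but not all, carry a short motif that binds the VAP proteins of the endoplasmic reticulum. In macrophages the family is known for its part in cholesterol distribution, in the positioning of late endosomes and in lipid efflux.

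Most of the family gave a weaker signal on the array labelled HuR-deficient: 8 of 10 members had a negative difference and 2 a positive one. Of all 22180 named genes, 46.3% had a negative difference, 49.2% a positive one, and 1004 had the same value on both arrays. The members' median difference was -0.32, against 0.00 over all named genes. A filter on low signal kept the 11981 genes for which at least 1 of the arrays gave 4.37 or more, a floor set at the median over probe sets with 1 symbol. Of the members, 9 passed, and Osbpl6 did not. Osbpl8 and Osbpl2 were the 2 members at least 1.5-fold lower, and both were also at least 2-fold lower. Among the genes that passed, the share at least 1.5-fold lower was 5.32%, and 1.11% were 2-fold lower or more. No member was at least 1.5-fold higher, where 5.45% of genes were, or 2-fold higher, where 0.885% were. These differences were in view when the members were chosen, so the counts describe the family and support nothing further.

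**Figure D1:**
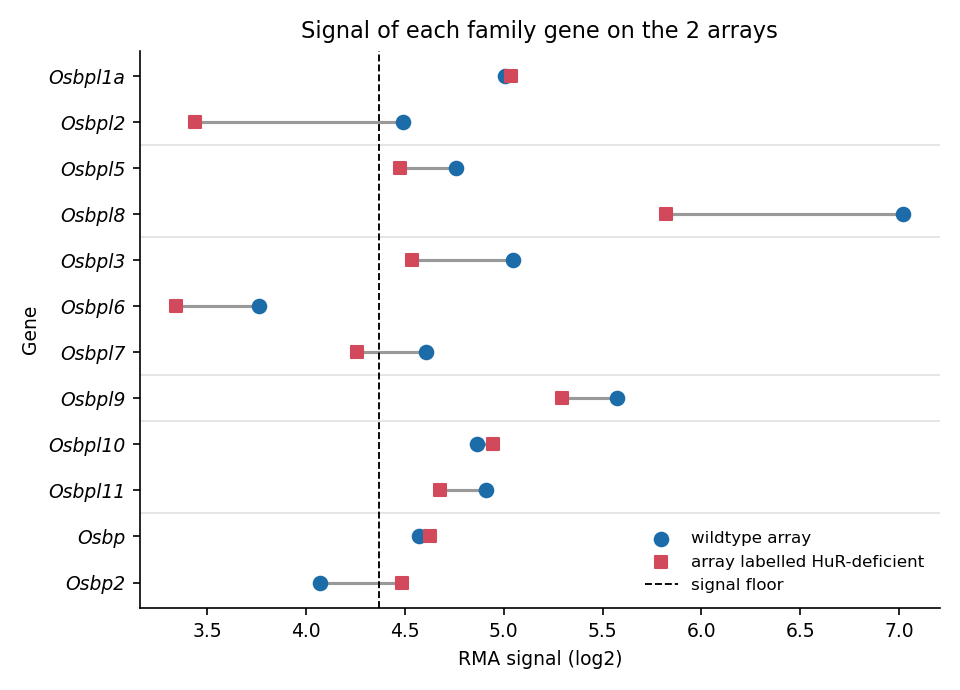
Log2 RMA signal of each family gene (rows, ordered by subfamily and separated by thin lines) on the wildtype array (blue circles) and the array labelled HuR-deficient (red squares); the dashed line is the signal floor of 4.37. Osbpl8 runs from 7.02 to 5.82, both above the floor, while Osbpl2 runs from 4.49 to 3.44 across it; positions of different genes are not comparable, since each probe set has its own brightness.

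The upstream sequences of Osbpl8 and Osbpl2 are shown because these genes differed by 2-fold or more, and that of Osbpl5 because it is the closest relative of Osbpl8 in the family and differed by less. All are from RefSeq, build GRCm38.p6, written 5′ to 3′ along the gene's own strand. Osbpl8 lies on chr10:111164552-111164741 (+ strand, 190 bases that end at the first annotated start of the gene, 60 bases before the start the table uses). Osbpl2 lies on chr2:180119056-180119305 (+ strand, 250 bases up to a start that lies downstream of another annotated start of the gene). Osbpl5 lies on chr7:143757009-143757258 (- strand, 250 bases). Capitals mark, on either strand, the E-box CACGTG, the GC box GGGCGG, the CCAAT box and the nuclear receptor half-site AGGTCA.
Osbpl8: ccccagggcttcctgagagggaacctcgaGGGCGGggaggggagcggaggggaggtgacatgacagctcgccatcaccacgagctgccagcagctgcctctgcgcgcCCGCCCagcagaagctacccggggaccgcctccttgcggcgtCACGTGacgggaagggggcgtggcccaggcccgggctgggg
Osbpl2: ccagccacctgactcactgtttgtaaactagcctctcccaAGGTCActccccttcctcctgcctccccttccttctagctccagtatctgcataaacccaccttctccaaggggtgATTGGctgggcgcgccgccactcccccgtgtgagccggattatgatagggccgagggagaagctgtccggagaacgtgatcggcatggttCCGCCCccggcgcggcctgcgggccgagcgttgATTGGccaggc
Osbpl5: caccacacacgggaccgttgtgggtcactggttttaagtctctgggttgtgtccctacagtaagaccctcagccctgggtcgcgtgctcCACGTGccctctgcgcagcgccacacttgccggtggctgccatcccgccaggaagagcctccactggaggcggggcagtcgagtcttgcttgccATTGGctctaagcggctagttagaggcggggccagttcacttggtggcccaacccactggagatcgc

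The RefSeq table held 12 start sites for 8 of the 10 members, and none for Osbpl1a and Osbpl10. In the 250 bases before each start, the E-box was present at Osbpl8 and at the first start of Osbpl5 and at no other of the 8 members, against 6.02% of all 32851 windows of that length. The GC box was present in 6 of the 12 windows and in 32.7% of all windows, and the CCAAT box in 6 of the 12 and in 33.8% of all. Osbpl8 had 4 GC boxes and no CCAAT box in its window, whereas Osbpl2 had 1 GC box and 2 CCAAT boxes. Of the 4 GC boxes of Osbpl8, 2 lie whole in the 190 bases shown above. The other Osbpl8 boxes lie partly or wholly in the last 60 bases of the window. Those bases follow the gene's first annotated start and are not shown. The half-site was present in the Osbpl2 window alone among the 12, against 14.0% of all windows. The core of the interferon-stimulated response element, searched as GAAANNGAA on both strands, was in none of the 12 and in 7.13% of all windows. No 2 motifs overlap in the sequences shown, and a match or its absence in these windows says nothing of binding. The members' windows ranged from 46.4% to 74.4% in GC content with a median of 62.8%, and the median over all windows was 52.4%. The other Osbpl5 windows held no E-box, and which start these cells use is not known. Any part of these motifs in the array differences was not tested.

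ORP5 and ORP8, the products of Osbpl5 and Osbpl8, are the members anchored in the endoplasmic reticulum by a C-terminal membrane segment, and they carry phosphatidylserine to the plasma membrane in exchange for a phosphoinositide. Osbpl8 (Entrez Gene 237542, probe set 17237219) gave a log2 signal of 7.02 in wildtype cells and 5.82 in cells labelled HuR-deficient. The difference was -1.20, so the signal on the array labelled HuR-deficient was 43.5% of that on the wildtype array, or 2.30-fold lower. Both signals lay above the floor, by 2.65 and 1.45 log2 units. The robust SD of the difference over the 500 genes nearest in mean signal was 0.33, which is a spread between genes on these arrays and not between replicates. Osbpl5 (Entrez Gene 79196) had signals of 4.76 and 4.47, a difference of -0.28, within the robust SD of 0.35 for genes of its signal. Both differences were below 0, where 46.3% of all named genes were, with Osbpl8 past 2-fold and Osbpl5 at 1.22-fold. Nothing is drawn from the shared sign.

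ORP1 and ORP2, encoded by Osbpl1a and Osbpl2, form the next subfamily. The long form of ORP1 sits on late endosomes, where it binds Rab7 and responds to cholesterol in the membrane. ORP2 is a short protein without the pleckstrin homology domain that is known to deliver cholesterol to the plasma membrane. Osbpl2 (Entrez Gene 228983, probe set 17380711) gave 4.49 in wildtype cells and 3.44 in cells labelled HuR-deficient, a difference of -1.05 and 2.07-fold lower. It passed the filter through the wildtype signal alone, which was 0.12 above the floor, and the other signal was 0.93 below it. A gene that passes in this way must differ, and a signal under the floor may be background, so the size of the Osbpl2 difference is uncertain. The robust SD for genes of its signal was 0.37. Osbpl1a (Entrez Gene 64291) had 5.01 and 5.04, a difference of 0.03, so the 2 genes of this subfamily did not move together on these arrays. When both signals were required to reach the floor, Osbpl8 was the only member left past 1.5-fold.

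The Osbpl3, Osbpl6 and Osbpl7 genes encode closely related proteins, of which ORP3 is known to bind VAP proteins and the small GTPase R-Ras and to act in cell adhesion. All 3 were lower on the array labelled HuR-deficient and none reached 1.5-fold. Osbpl3 (Entrez Gene 71720) had signals of 5.05 and 4.53, a difference of -0.51, which is 1.43-fold and 1.62 times the robust SD of 0.32 for its signal. Osbpl7 (Entrez Gene 71240) had 4.61 and 4.26, a difference of -0.35, with the lower signal below the floor. Osbpl6 (Entrez Gene 99031) had 3.76 and 3.35, a difference of -0.42, with both signals below the floor, where expression was not shown. The 3 differences ran from -0.51 to -0.35, each between 1.08 and 1.62 times the robust SD of genes of like signal.

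ORP9, ORP10 and ORP11 act at contacts between the endoplasmic reticulum and the Golgi or endosomes, where ORP9 pairs with ORP10 or ORP11 to move phosphatidylserine and phosphoinositides. Osbpl9 (Entrez Gene 100273) had signals of 5.57 and 5.29, a difference of -0.28. Osbpl11 (Entrez Gene 106326) had 4.91 and 4.68, a difference of -0.23. Osbpl10 (Entrez Gene 74486) had 4.87 and 4.95, a difference of 0.08. All 6 of these signals lay above the floor, and all 3 differences were smaller than the robust SD for their signal (0.32, 0.32 and 0.33). Across the family, the differences of Osbpl2, Osbpl3, Osbpl6, Osbpl7 and Osbpl8 were larger than the robust SD for their signal. Of these, Osbpl6 had both signals below the floor, and Osbpl2 and Osbpl7 had the second below it. The share of all genes past their robust SD was not counted, so nothing is drawn from this split.

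**Figure D2:**
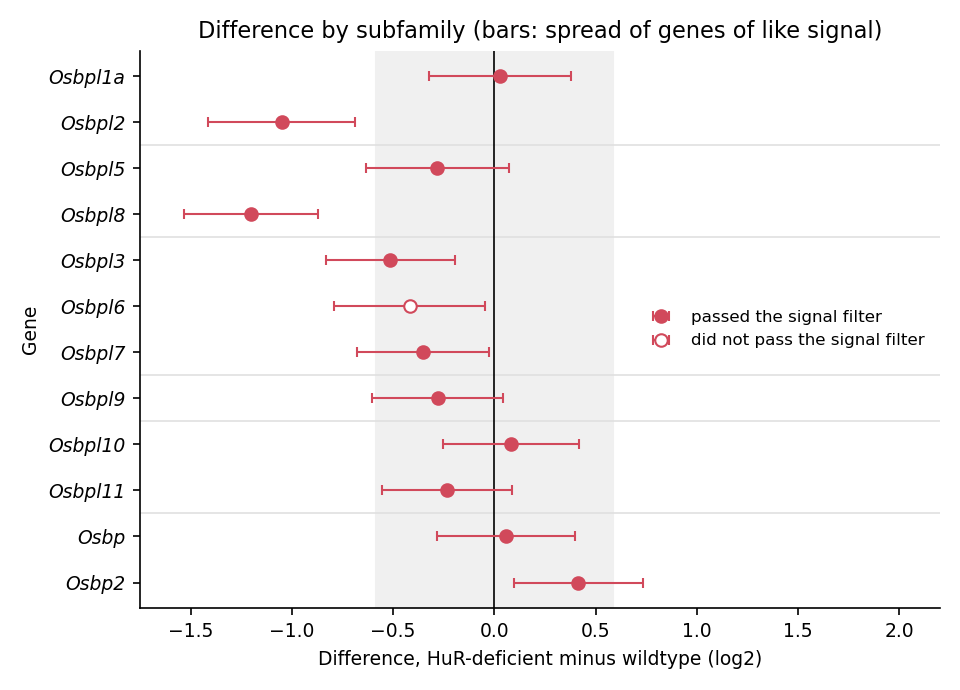
Log2 difference of each family gene, array labelled HuR-deficient minus wildtype array, with a bar of 1 robust SD of the differences of the 500 genes nearest in signal on each side (not a replicate error); the grey band spans 1.5-fold in either direction, and the open circle is Osbpl6, which did not pass the filter. Osbpl8 (-1.20) and Osbpl2 (-1.05) lie outside the band and all other genes inside it.

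OSBP, the founding member, exchanges cholesterol for a phosphoinositide between the endoplasmic reticulum and the Golgi and binds oxysterols, and its relative ORP4 is encoded by Osbp2. Osbp had signals of 4.57 and 4.63, a difference of 0.06. Osbp2 had 4.07 and 4.49, a difference of 0.41, with the wildtype signal below the floor. Neither reached 1.5-fold, and both lay on the other side of 0 from 8 of the 10 members.

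**Figure D3:**
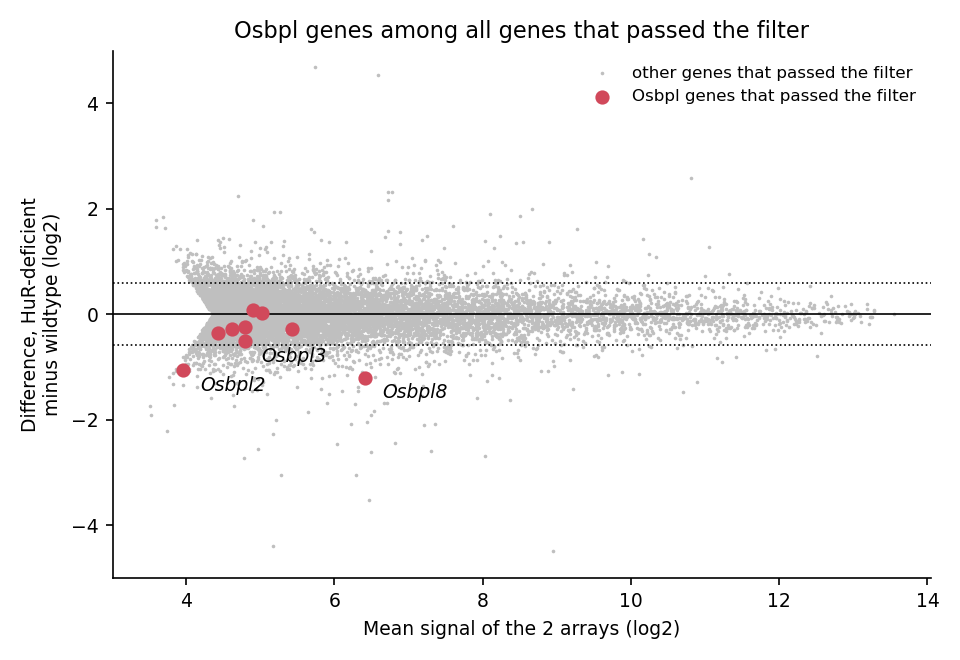
Log2 difference (vertical axis) against the mean log2 signal of the 2 arrays (horizontal axis) for all 11981 genes that passed the filter, in grey, with the 9 Osbpl genes that passed in red; dotted lines mark 1.5-fold. Osbpl8 lies clear of the bulk of genes at its signal, while Osbpl2 lies on the slanted lower left edge that the filter itself makes.

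Genes of the same pathway were taken from 7 lists chosen for their role. Of 85 distinct genes measured, 43 had a negative and 39 a positive difference, and the median was -0.02. The filter kept 70 of them. Of these, 6 were past 1.5-fold, 3 in each direction, which is 8.57% against 10.8% of all genes that passed, and none reached 2-fold.

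Phosphoinositide exchange genes, whose products make, move or remove the lipid that the family trades, had 12 of 16 measured members below 0, where 46.3% of all named genes were, and a median of -0.13. Of the 14 that passed, 2 were at least 1.5-fold lower and none higher, where 5.32% and 5.45% of all genes that passed were. Pip5k1b, a kinase that makes the plasma membrane phosphoinositide bound by ORP5 and ORP8, had 7.09 and 6.15, a difference of -0.94. Ttc7, a subunit of the complex that holds a phosphatidylinositol kinase at the plasma membrane, had 4.90 and 4.27, a difference of -0.64, and passed through its wildtype signal alone, the other being below the floor. The highest that passed were Sacm1l, which encodes the Sac1 phosphatase that degrades the exchanged phosphoinositide at the endoplasmic reticulum, at 0.20, and Pip5k1a at 0.13. Phosphatidylserine supply genes had a median of 0.15, with 8 of 10 above 0, where 49.2% of all named genes were. Pisd, the mitochondrial enzyme that turns phosphatidylserine into phosphatidylethanolamine, had 5.75 and 4.81 and was the 1 of 8 passing members at least 1.5-fold lower (difference -0.94). Atp11a, at -0.06, was the other member below 0, and the flippase gene Atp8a1 (0.51) and Abhd16a (0.27) were the highest among those that passed. The median of this list thus lay above 0 and that of the Osbpl genes below it.

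Genes of endoplasmic reticulum tethers had a median of -0.02 over 14 measured members, and none of the 9 that passed reached 1.5-fold. Vapa, which encodes a VAP protein that some members of the family bind, had 6.06 and 5.67, a difference of -0.39. Among the 9, Mospd1 was the lowest at -0.45, and Mospd3 and Mospd2 were the highest at 0.14 and 0.13. Late endosome partners of ORP1 and their associates had a median of -0.03, with none of 8 past 1.5-fold. In this list Vps41, a tether subunit, differed by -0.54, Anxa1 by -0.27, the dynein adaptor subunit gene Dctn1 by 0.45 and Rilp, whose product binds Rab7, by 0.19.

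Other sterol and ceramide carriers had a median of 0.00, with 7 of 14 above 0 and 7 below. Of the 13 that passed, 2 were at least 1.5-fold higher, where 5.45% of all genes that passed were. Star, which brings cholesterol into mitochondria, had 3.98 and 4.87, a difference of 0.89, from a wildtype signal below the floor, and Stard5 had 4.81 and 5.45, a difference of 0.63. Stard6 (-0.55) and Scp2 (-0.34) were the lowest that passed. Oxysterol synthesis and breakdown genes had a median of 0.02 over 8 members, none of the 5 that passed being past 1.5-fold. Ch25h, the cholesterol hydroxylase that interferon induces in macrophages, had 4.17 and 4.68, a difference of 0.51, Cyp27a1 differed by 0.23, Hsd3b7 by -0.38 and Ebp by -0.40. The wildtype signal of Ch25h and the second signal of Hsd3b7 (4.14) lay below the floor. Oxysterol sensing genes and their targets had a median of -0.05 over 15 members. Of the 13 of these that passed, 1 was at least 1.5-fold higher, against 5.45% of all genes that passed. This was Scap, the escort of the sterol-regulated transcription factors, with 4.74 and 5.41 (difference 0.67). Srebf2 differed by 0.37, the receptor gene Rxrb by -0.52, and Abca1, the cholesterol exporter, by -0.57, with its second signal (3.99) below the floor. No list of the 7 had a median as low as that of the Osbpl genes, and this difference between lists was not tested. The Osbpl genes were chosen with their differences in view, so this ranking describes the lists and supports nothing further.

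**Figure D4:**
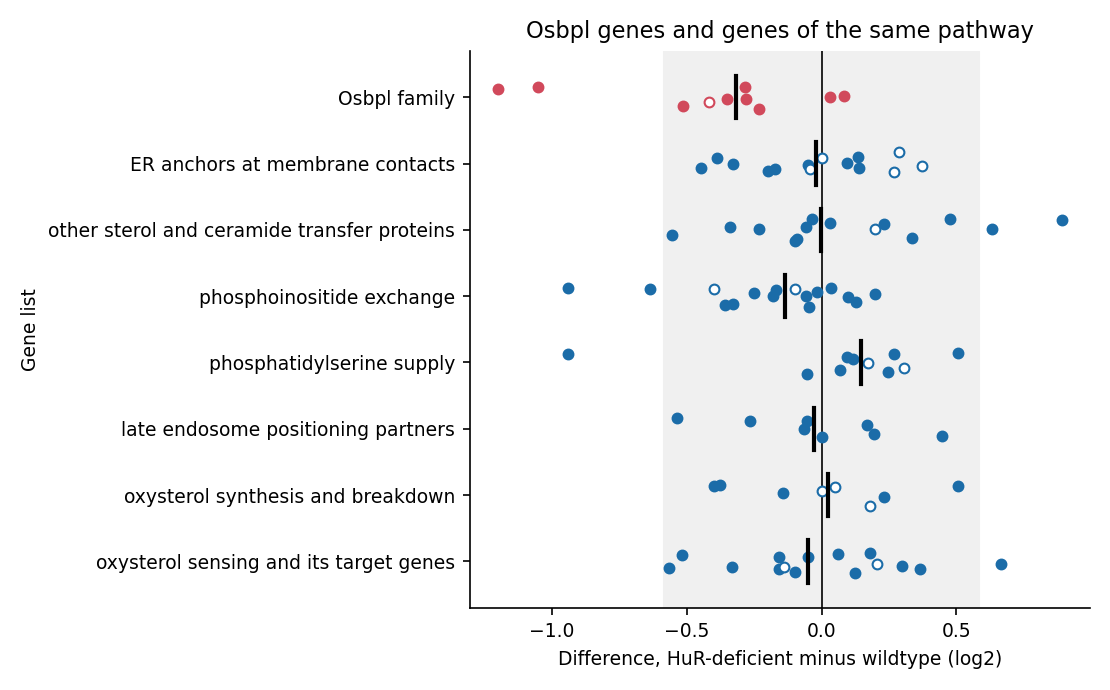
Log2 difference, array labelled HuR-deficient minus wildtype array, of the 10 Osbpl genes (red) and of each gene in the 7 pathway lists (blue), with a black bar at each list's median; open circles did not pass the filter, the grey band spans 1.5-fold, and the vertical scatter within a row has no meaning. The Osbpl median is -0.32 and the list medians run from -0.13 to 0.15.

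Neighbours in gene order were read for each member, 3 named genes on each side, to see whether the members stood in runs of genes that differed alike. Of 60 such neighbours 42 passed the filter, and 4 of these (9.52%) were past 1.5-fold, near the 10.8% of all genes that passed. With no filter 7 of the 60 (11.7%) were, against 10.97% of all named genes. Around Osbpl8 all 6 neighbours passed and none reached 1.5-fold, with differences from -0.43 for Bbs10 to 0.26 for Gm5176. The direct neighbours of Osbpl8 were Rpl6l, at -0.01, and Bbs10. Around Osbpl2 the 4 neighbours that passed ran from -0.24 for Mir3091 to 0.63 for Hrh3, the latter from a wildtype signal below the floor. Around Osbpl5, itself at -0.28, the 5 that passed ran from -0.24 for Mrgpre to 0.75 for Tnfrsf26, with Tnfrsf23 at 0.48 and Tnfrsf22 at 0.29. Around Osbpl10 the 4 that passed ran from -0.50 for Stt3b to 0.64 for Gpd1l. Around Osbpl6 all 3 neighbours that passed were lower, namely Rbm45 (7.79 and 6.91, difference -0.88), Fkbp7 (-0.56) and Prkra (-0.50). Of the neighbours of Osbpl6 that did not pass, Pde11a differed by -0.49, Pjvk by 0.00 and Cyct by 0.41. No neighbour of Osbpl8 or Osbpl2 that passed reached 2-fold. Among all genes that passed, 1.11% were 2-fold lower or more and 0.885% were 2-fold higher. So few neighbours cannot show whether the members stood in such runs, and this was not tested.

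Each array carried 41345 probe sets. Their medians were 4.08 and 4.10 on the log2 scale, and 95% of the genes that passed the filter differed by between -0.77 and 0.75. Elavl1, the targeted gene, had signals of 7.68 and 7.75, so its probe set does not separate the arrays and the genotype label could not be checked here. Of 10 macrophage markers 9 passed the filter and 8 reached a log2 signal of 6 on an array, with a median difference of -0.07. Among them Adgre1, which encodes F4/80, had 4.94 and 6.51, a difference of 1.57 that is larger than that of any Osbpl gene, and Mertk, which did not pass, had a difference of 0.73. The part of such marker differences in the results was not tested. Of 16 measured markers of T cells, B cells, fibroblasts, epithelium and hepatocytes, 9 passed and none reached 6, and their median difference was -0.20. The part of RNA quality, culture or labelling in the family's differences was not tested. Fewer cells with a transcript and less transcript per cell cannot be told apart in RNA from a whole culture.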

How the data were processed

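The authors deposited log2 signals per probe set. RMA was the tool, per the submitters' processing notes, and its version and the genome build are not stated there. RMA quantile-normalises the arrays and summarises probes into probe sets, which hides a change in total mRNA and compresses weak signals. Detection calls and scanner files were not used here, and 2 arrays limit the precision.

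Gene names came from the platform table, which may be old. Only the 23521 with 1 symbol were used, and for the 1082 genes with several, the one of highest mean signal was taken. The filter, the 1.5-fold and 2-fold thresholds and the robust SD (scaled median absolute deviation over 500 genes) are described with the results. Pathway genes were named where they passed the filter and were past 1.5-fold, or were the 2 highest or 2 lowest of their list among those that passed. The members and lists were chosen with earlier results of these data known, and the neighbours and promoter windows were added after the values were seen. The alternatives were centring, further quantile normalisation, a loess trend (span 0.3) removed, averaged probe sets, probe sets with several symbols, other filters and a 2-fold threshold. The counting and smoothing steps were tested on simulated data. For the counting step, the simulated differences were larger than that of any member and were put only on genes well above the floor. Calls near the floor, such as that of Osbpl2, were therefore not tested. The computation used Python 3.11.15 with pandas 2.3.3 and numpy 2.4.6, the loess fit statsmodels 0.14.6 and the plots matplotlib 3.10.9.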

Additional observations from a re-analysis of the deposited data

How the results depend on the processing

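Under centring, quantile normalisation applied again, subtraction of a loess trend, averaging of probe sets and use of probe sets with several symbols, the 50 recomputed differences of the 10 members kept their sign and moved by at most 0.04 on the log2 scale, less than the 0.1 taken as a move. Osbpl8 ranged from -1.20 to -1.18 and Osbpl2 from -1.09 to -1.05. Centring subtracted a median difference of 0.00, and averaging used the 1 probe set of each member, so neither could move a value. Adding probe sets with several symbols left every value as it was. The further quantile normalisation was applied to signals that RMA had already normalised, so little movement could arise there. The 50 values are therefore a weak check. The count of members at least 1.5-fold different was 2 and stayed so with no filter and at 2-fold, and it was 1 when both signals had to reach the floor, because Osbpl2 has a signal below it. The median difference was -0.32, and -0.28 over the 9 members that passed. No paired analysis was possible because each group has 1 array. Differences between cultures of 1 genotype could not be measured, and signals below 4.37 (in Osbpl2, Osbpl6 and Osbpl7), or just above it (in Osbpl3 and Osbpl5), are the least certain to lie above background.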
